A study of Arabidopsis thaliana with 10 samples.

Results

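AT1G06002 is a noncoding locus on chromosome 1 of Arabidopsis thaliana that the authors' catalogue places among its small RNA precursors. It is 1 of 1362 loci with values in the catalogue, of which 384 are annotated noncoding RNA genes and 978 are predicted, and 1 of 36 annotated small RNA precursors. The locus was chosen from its measured levels in these same libraries, because it was higher after cold, so its levels below are a description and carry no test. The name given to it, a precursor raised by cold, holds only in part: cold at 3 h gave the highest level, but drought at 3 h and salt at 12 h were also well above the control. Without rescaling, counting error did not separate these 3 levels, while under both rescalings described below cold at 3 h stood above salt at 12 h.

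The RNA came from 12-day-old seedlings of the wild-type accession Col-0, and all 9 libraries used here hold RNA without a poly(A) tail and depleted of ribosomal RNA. Seedlings were kept at 4 °C (cold), at 37 °C (heat), in 200 mM NaCl (salt) or in 300 mM mannitol (drought, by osmotic stress), and each stress was sampled at 3 h and at 12 h. The only control is an untreated library at 3 h, so every 12 h value is set against a control of another time. Each condition has 1 library and no replicate, and a further sample of the series, total RNA of mixed tissues, was not analysed here. Libraries had 17.6 M to 37.0 M mapped reads (M, megareads), of which the catalogue took 10399 to 22293. Both were worked out from the authors' expression values, as described under the processing of the data. The catalogue holds no coding genes, so neither the tissue nor the stress could be checked against marker genes. In RNA of whole seedlings, fewer cells of a type and less RNA per cell cannot be told apart.

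Natural antisense transcripts are copied from the strand opposite another gene, and where both transcripts are made they can pair and be cut into small RNAs. A small RNA precursor is a longer transcript that overlaps such small RNAs, and many plant precursors lie in repeats that are silenced by DNA methylation. The gene opposite AT1G06002, AT1G06000, is annotated as a flavonol-7-O-rhamnosyltransferase, an enzyme of the UDP-glycosyltransferase superfamily. Such enzymes attach the sugar rhamnose to flavonols, pigments that absorb ultraviolet light and that plants accumulate in cold, strong light and other stress.

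The catalogue gives AT1G06002 a single exon of 942 nt on the plus strand, at chr1:1820977-1821918 (TAIR10). Of its bases, 918 (97.5%) lay opposite AT1G06000, which runs on the minus strand at chr1:1820308-1821894. It lay opposite 826 coding bases, 63.1% of the 1308-nt coding sequence, covered the start codon and reached 24 nt beyond the 5′ end of that gene. The RefSeq annotation (TAIR10.1) also notes AT1G06002 as a natural antisense gene of AT1G06000, with a longer transcript of 1634 nt at chr1:1820254-1821887. That transcript starts 723 nt before the catalogue's exon and ends 31 nt before its end, so the values below describe the catalogue's exon only. The neighbours on the plus strand were AT1G05990, an EF-hand calcium-binding protein gene 1793 bp upstream, and AT1G06010, a basic leucine zipper and W2 domain protein gene 665 bp downstream. The nearest other locus with values was 75719 bp away, and the nearest of the loci that the authors list apart as level 3 was 20333 bp away.

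**Figure D1:**
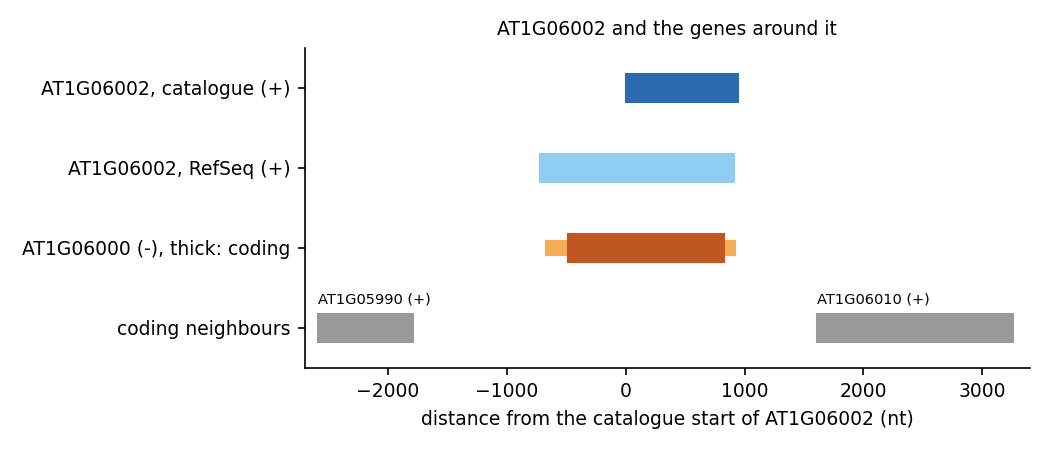
Genes around AT1G06002, with the distance in bp from the start of its exon in the catalogue on the x axis, a row for each transcript or gene and the strand in parentheses. The catalogue's exon lies almost wholly opposite AT1G06000 and over its start codon, and the RefSeq transcript starts 723 nt further upstream.

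The first sequence below shows the antisense arrangement itself. It is the plus strand, 5′ to 3′, of chr1:1821503-1821802 (RefSeq, TAIR10.1), which lies inside AT1G06002 and opposite the first 300 coding bases of AT1G06000. The capitals mark the 3 bases opposite the start codon of AT1G06000.
AT1G06002 opposite the AT1G06000 coding start: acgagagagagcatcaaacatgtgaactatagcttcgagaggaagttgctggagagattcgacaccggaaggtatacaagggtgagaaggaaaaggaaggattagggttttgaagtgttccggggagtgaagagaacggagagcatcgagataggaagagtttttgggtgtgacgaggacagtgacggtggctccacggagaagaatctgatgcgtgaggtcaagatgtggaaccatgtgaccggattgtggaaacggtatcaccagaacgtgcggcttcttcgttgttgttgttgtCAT

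Because the catalogue and RefSeq place the start of AT1G06002 differently, the window around each start is shown, from 250 nt before it to 50 nt from it onward. Both are plus-strand sequences from TAIR10.1, at chr1:1820004-1820303 for the RefSeq start and chr1:1820727-1821026 for the catalogue start. Capitals mark matches, on either strand, to 3 short stress-related motifs: CCGAC, the core of the element that cold-responsive CBF factors bind, ACGTG, the core of the abscisic acid response element, and GAANNTTC, a core of the heat shock element. No motif match overlaps another.
AT1G06002 window at the RefSeq start: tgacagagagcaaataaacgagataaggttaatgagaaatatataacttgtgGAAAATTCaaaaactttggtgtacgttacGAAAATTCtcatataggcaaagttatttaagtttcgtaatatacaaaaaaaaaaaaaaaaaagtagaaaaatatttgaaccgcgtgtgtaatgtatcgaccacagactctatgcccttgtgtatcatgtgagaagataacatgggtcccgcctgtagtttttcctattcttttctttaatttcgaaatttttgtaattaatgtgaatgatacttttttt
AT1G06002 window at the catalogue start: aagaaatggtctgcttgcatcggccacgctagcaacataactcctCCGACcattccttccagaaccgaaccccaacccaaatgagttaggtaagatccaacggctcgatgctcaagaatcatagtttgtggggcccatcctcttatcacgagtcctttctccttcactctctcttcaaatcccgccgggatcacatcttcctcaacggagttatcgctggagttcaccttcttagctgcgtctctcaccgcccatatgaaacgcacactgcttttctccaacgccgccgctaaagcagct

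The RefSeq window had a GC content of 29.7% and 2 matches, both to GAANNTTC, beginning 198 and 169 nt before the start. The catalogue window had a GC content of 51.3%, and it lies opposite coding sequence. It held 1 match, to CCGAC, beginning 205 nt before the start. Over 37897 windows of the same length at the starts of annotated genes, 15.3% held CCGAC, 24.6% held ACGTG and 11.4% held GAANNTTC at least once, so a single match to any of them is not rare. The share with 2 matches to GAANNTTC was not counted, and these windows were not matched for GC content. The exon as a whole had a GC content of 48.4%, and its longest open reading frame from ATG to stop was 222 nt. It matched no other place in the genome by blastn (E value up to 1e-5), a limit that misses very short matches. Of the exact run lengths tested, 25 nt was the shortest with no copy elsewhere on chromosomes 1 to 5, so a shorter run did recur.

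The level is given in RPKM, the reads of a locus per kilobase of exon and per M of mapped reads. The authors' values for annotated loci stand in the rows of other loci, so AT1G06002 was given back its own values by the order of the locus numbers. At its exon length these 9 values were all whole numbers of reads to within 0.02 reads, and of the 384 annotated exon lengths no other made them so. In the other direction, of 203 rows with at least 5 non-zero values, 2 were whole at this exon length, that assigned to AT1G06002 and that assigned to AT5G01595, so the match rests on the order of the locus numbers as well. The values printed in its own row were whole in 0 of 7 non-zero cases. Ranges in parentheses are exact 95% intervals of the reads and cover counting error only, since PCR copies were not separated and there is no replicate. The libraries keep the strand, but none of the sources used here says whether counting did. Without it, reads of AT1G06000 could not be told from those of AT1G06002.

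AT1G06002 had reads in all 9 libraries, 612 in all, which ranked 25th of the 1362 loci. In the control at 3 h it had 19 reads, or 0.801 RPKM (0.482 to 1.25). In cold it had 160 reads at 3 h, or 5.16 RPKM (4.39 to 6.02), and 52 reads at 12 h, or 1.73 RPKM (1.30 to 2.27). The locus was thus highest early in cold and well below that level by 12 h. In heat it had 28 reads at 3 h, or 0.802 RPKM (0.533 to 1.16), and 73 reads at 12 h, or 2.26 RPKM (1.77 to 2.84). Early heat was level with the control, and late heat was higher. In salt it had 52 reads at 3 h, or 1.75 RPKM (1.31 to 2.30), and 70 reads at 12 h, or 4.22 RPKM (3.29 to 5.34). In drought it had 112 reads at 3 h, or 4.56 RPKM (3.75 to 5.48), and 46 reads at 12 h, or 2.32 RPKM (1.70 to 3.10). Without rescaling, salt and drought had their higher level at opposite times.

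**Figure D2:**
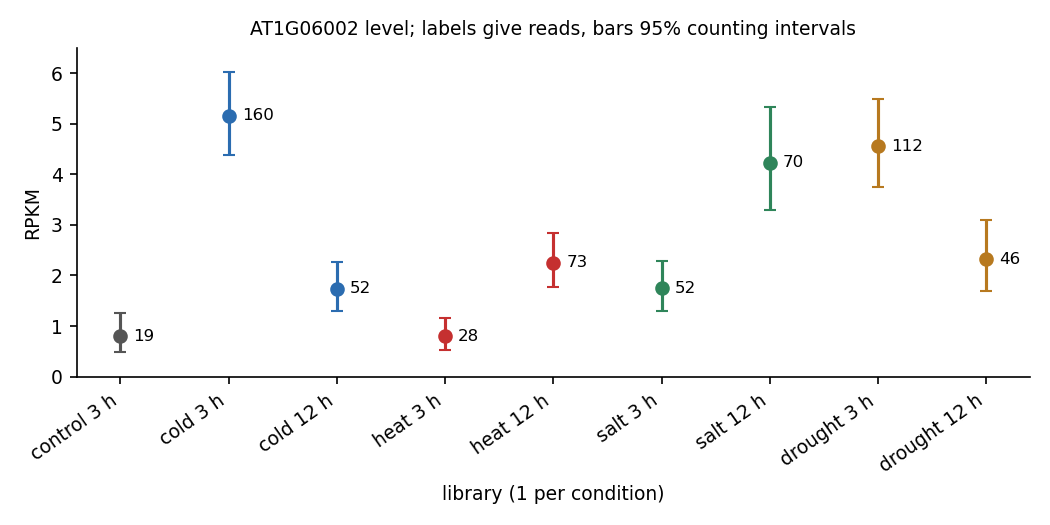
RPKM of AT1G06002 in the 9 libraries, with exact 95% intervals of the reads as bars and the read count at each point. Cold at 3 h (5.16), drought at 3 h (4.56) and salt at 12 h (4.22) stand highest, and the control (0.801) and heat at 3 h (0.802) lowest.

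Without rescaling, the levels fell into 3 ranges. Cold at 3 h, drought at 3 h and salt at 12 h formed the highest, drought at 12 h, heat at 12 h, salt at 3 h and cold at 12 h the middle, and heat at 3 h and the control the lowest. Of the 8 pairs of neighbours in this order, 6 did not differ beyond counting error. Cold at 3 h was 1.13 times drought at 3 h (0.884 to 1.45) and drought at 3 h was 1.08 times salt at 12 h (0.793 to 1.47). The steps between ranges were larger: salt at 12 h was 1.82 times drought at 12 h (1.24 to 2.70), and cold at 12 h was 2.16 times heat at 3 h (1.34 to 3.56). Over all 36 pairs of libraries, the interval excluded a ratio of 1 in 26. These ranges depend on the scaling of the libraries, as given further on.

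Of the 378 loci with at least 20 reads over the 9 libraries, 21 (5.56%) had their highest level in cold at 3 h, as AT1G06002 did, which is the library it was chosen on. That share was close to those of the control (5.82%), salt at 3 h (5.56%) and drought at 3 h (6.88%), above heat at 3 h (2.65%) and below the 12 h libraries, of which drought had the highest (23.3%). AT1G06002 ranked 12th of the 1362 loci by level in cold at 3 h, 21st in drought at 3 h, 60th in the control and 74th in heat at 3 h. Its share of all reads on the catalogue was 1.06% in cold at 3 h and 0.160% in the control.

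Against the control, the ratio of RPKM was 6.44 (3.99 to 11.0) in cold at 3 h, 5.69 (3.48 to 9.80) in drought at 3 h and 5.28 (3.14 to 9.28) in salt at 12 h. These were the 3 comparisons in which AT1G06002 was at least 2-fold higher on log2(RPKM + 1), a scale that understates the change of low loci, with differences of 1.77, 1.63 and 1.54. On the same rule, 2.2% of the 1362 loci were higher in cold at 3 h, 3.23% in drought at 3 h and 7.64% in salt at 12 h. AT1G06002 ranked 5th, 12th and 53rd among all loci by this difference. It thus stood nearer the top of the catalogue in early cold than in late salt, although its own ratios were close.

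In the other comparisons AT1G06002 was not past this fold. The ratio to the control was 2.17 (1.26 to 3.88) in cold at 12 h, where 5.73% of loci were at least 2-fold higher, and 2.19 (1.27 to 3.92) in salt at 3 h, where 3.45% were. It was 2.82 (1.68 to 4.94) in heat at 12 h, with 4.92% of loci higher, and 2.90 (1.67 to 5.24) in drought at 12 h, with 9.4% higher. Without rescaling, these 4 ratios exceeded 1 beyond counting error, with differences on log2(RPKM + 1) of 0.60 to 0.88. Heat at 3 h gave a ratio of 1.00 (0.540 to 1.90), with 1.17% of loci higher. The 8 comparisons share the 1 control library and its 19 reads on AT1G06002, so an error in that library would move them all together.

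Well-read loci tended to stand above the control, by amounts that differed between the stressed libraries, which bears on these ratios. Over 59 loci with at least 5 reads in every library, AT1G06002 among them, the median log2 ratio to the control was 0.41 in cold at 3 h, 0.46 in drought at 3 h, 0.75 in salt at 12 h and 0.91 in drought at 12 h. This median was 0.59 in cold at 12 h and 0.39 in heat at 12 h, but only 0.14 in salt at 3 h and 0.045 in heat at 3 h. Relative to that median, the ratio of AT1G06002 was 4.86 in cold at 3 h, 4.13 in drought at 3 h and 3.14 in salt at 12 h. With libraries rescaled in this way, cold and drought at 3 h stayed past the 2-fold rule (1.44 and 1.26 on log2(RPKM + 1)) and salt at 12 h did not (0.97). Scaling to the reads on the catalogue without its most abundant locus gave 1.79, 1.35 and 0.96.

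The rescalings also moved the order of the libraries. Cold at 3 h was 1.55 times salt at 12 h (1.16 to 2.08) after rescaling by the median and 2.09 times (1.57 to 2.81) after scaling to the catalogue's reads. It was 1.18 times drought at 3 h (0.919 to 1.51) on the first scale and 1.46 times (1.14 to 1.87) on the second. Cold at 3 h thus stood above salt at 12 h on both scales, and above drought at 3 h on the second alone. The libraries at 12 h moved toward the control. By the median, the ratio to the control was 1.44 (0.839 to 2.58) in cold at 12 h and 1.54 (0.885 to 2.78) in drought at 12 h, and neither exceeded counting error. It was 2.15 (1.28 to 3.77) in heat at 12 h and 1.99 (1.16 to 3.57) in salt at 3 h, which both did. On the second scale the same 2 of these 4 did. The part of depth or RNA makeup in the salt value was not tested.

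Between 3 h and 12 h, AT1G06002 differed in its course between stresses. In cold it was 2.97-fold lower at 12 h (2.16 to 4.15), a log2(RPKM + 1) difference of -1.17 and past the 2-fold rule, as were 1.03% of loci in that direction. In drought it was 1.96-fold lower (1.38 to 2.83), a difference of -0.74, where 0.881% of loci were at least 2-fold lower. In heat it was 2.81 times higher at 12 h (1.80 to 4.52), a difference of 0.85, with 4.26% of loci at least 2-fold higher. In salt it was 2.41 times higher (1.66 to 3.52), a difference of 0.93, with 5.07% of loci higher. The salt value depended on the scaling: the ratio was 1.58 (1.09 to 2.31) and the difference 0.44 after rescaling by the median, and 1.41 (0.968 to 2.05) and 0.33 after scaling to the catalogue's reads. Cold and drought thus gave an early maximum and heat a higher level at the later time, beyond counting error on all 3 scales, while salt exceeded it on 2 of them. In drought the difference passed the 2-fold rule on the last scale (-1.07), and the difference between the courses had no test.

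**Figure D3:**
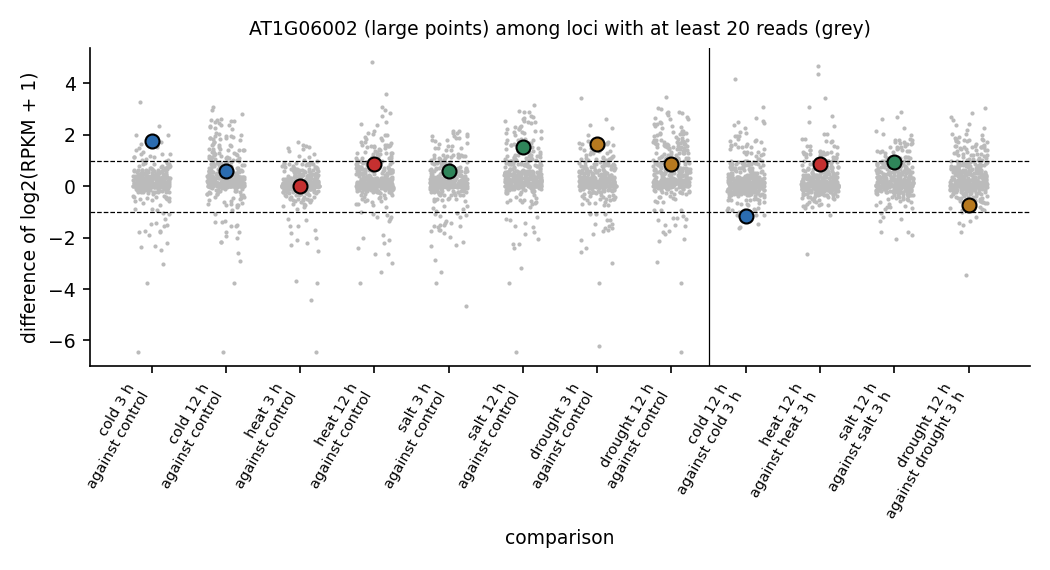
Difference of log2(RPKM + 1) in the 8 stressed libraries against the control and, right of the vertical line, at 12 h against 3 h, with AT1G06002 as the large point and the 378 loci with at least 20 reads in grey. Dashed lines mark the 2-fold rule, which AT1G06002 passes upward in cold at 3 h (1.77), drought at 3 h (1.63) and salt at 12 h (1.54) and downward in cold from 3 h to 12 h (-1.17).

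In all, 9 of the 1362 loci were at least 2-fold higher in cold at 3 h, drought at 3 h and salt at 12 h alike. Of them 4 were annotated: AT1G04295, AT1G06002, AT1G10682 and AT1G50659. These 3 libraries were taken because AT1G06002 passed the rule in them at this pseudocount of 1 RPKM. That it passed in no other stressed library is therefore set by the definition and is no trait of its own. The other loci of the 9 each passed in some further stressed library as well. With 0.5 RPKM AT1G06002 also passed in heat at 12 h (1.08) and drought at 12 h (1.12), and with 0.1 RPKM in every stressed library but heat at 3 h. The 5 predicted loci were level1_lnc-53, level1_lnc-249, level1_lnc-322, level2_lnc-150 and level2_lnc-187. The control library is shared by all these comparisons, and in it level1_lnc-322 and level2_lnc-150 had no read. There level2_lnc-187 had 1 read, AT1G10682 and level1_lnc-249 had 2 each, and level1_lnc-53 had 4, so their ratios rest on very few control reads.

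The locus whose levels were most like those of AT1G06002 was AT1G50659. Likeness was Pearson's correlation of log2(RPKM + 1) over the 9 libraries, among 377 other loci with at least 20 reads. AT1G50659 had r = 0.959 (Spearman 0.917), against a median of 0.17 over the 377 loci, of which 2 were above 0.8. The points share the 9 libraries with their depths, and the correlation is a description. AT1G50659 remained the nearest locus when any 1 library was left out, with r from 0.952 to 0.973. With cold at 3 h, the library AT1G06002 was chosen on, left out, r was 0.962.

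AT1G50659 is also antisense. It is a 994-nt locus on the minus strand at chr1:18770937-18771930, wholly opposite AT1G50660, annotated as an actin cytoskeleton-regulatory complex pan-like protein gene, and it too covers the opposite start codon. Its level was 0.479 RPKM in the control (12 reads), 2.93 in cold at 3 h (96 reads), 2.97 in drought at 3 h (77 reads) and 3.15 in salt at 12 h (55 reads). In cold at 12 h, heat at 12 h, salt at 3 h and drought at 12 h it was 1.39, 1.41, 1.53 and 2.20 RPKM, and in heat at 3 h it was 0.815 RPKM. The control and heat at 3 h were lowest for both loci, while the highest library of AT1G50659 was salt at 12 h. Its ratio to the control was 6.12 (3.35 to 12.3) in cold at 3 h, 6.19 (3.35 to 12.5) in drought at 3 h and 6.56 (3.47 to 13.5) in salt at 12 h. Per kilobase, AT1G50659 was at 0.569 times the level of AT1G06002 in cold at 3 h and 1.02 times in heat at 3 h, the ends of the range over libraries.

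**Figure D4:**
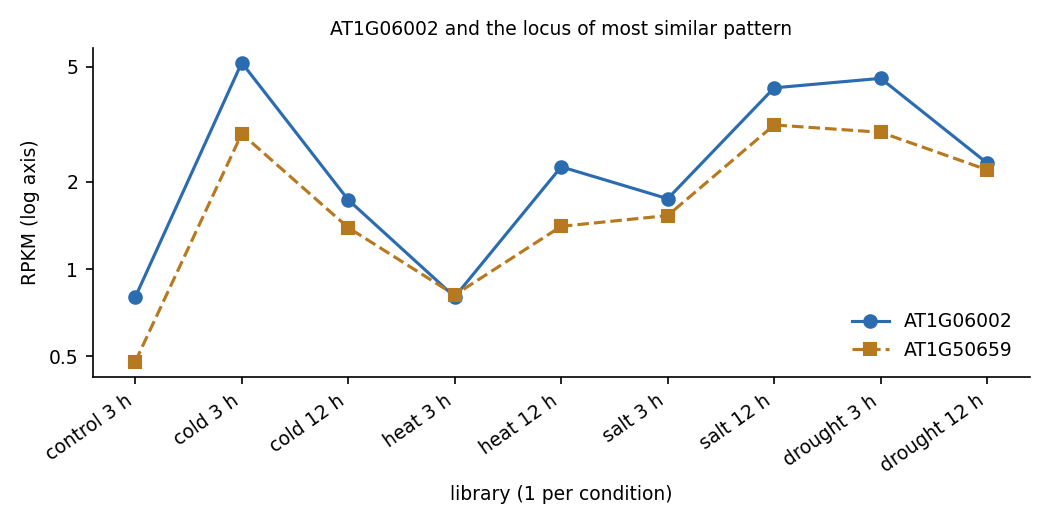
RPKM, on a log axis, of AT1G06002 (circles) and AT1G50659 (squares) in the 9 libraries, with lines only to guide the eye between libraries. Both are lowest in the control and in heat at 3 h and high in cold at 3 h, drought at 3 h and salt at 12 h.

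The next 4 loci were predicted ones and rested on fewer reads or lower correlations. They were level2_lnc-51 (r = 0.834, 22 reads), level2_lnc-150 (r = 0.80, 103 reads), level2_lnc-255 (r = 0.77, 28 reads) and level2_lnc-236 (r = 0.767, 230 reads). Of these, level2_lnc-150 lies opposite the gene AT1G73470, and level2_lnc-236 is intergenic, 1716 bp from the RING/U-box protein gene AT2G31760. At 22 and 28 reads over 9 libraries, the correlations of level2_lnc-51 and level2_lnc-255 are no finding.

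Among the 36 annotated small RNA precursors, 17 had at least 20 reads and 3 had none, and AT1G06002 ranked 5th by reads. It was the only one of the 17 with its highest level in cold at 3 h, and the only one of the 36 (2.78%) at least 2-fold higher there, a share near the 2.2% of all loci. AT1G06002 was chosen for being higher in cold, so its place in both counts follows from the choice, and neither is a result about the class. In cold at 12 h the only one of the 36 (2.78%, against 5.73% of all loci) was AT5G59732. Its 23 control reads compare with 75 after 3 h of cold and 242 after 12 h. Its ratio to the control was 2.49 (1.55 to 4.17) at 3 h and 8.33 (5.42 to 13.4) at 12 h. The cold levels of AT1G06002 and AT5G59732 thus ran in opposite orders, one highest at 3 h and the other at 12 h. The catalogue also has 91 predicted small RNA precursors, 29 of them with at least 20 reads. Of the 91, 3 passed the rule in cold at 3 h (against 2.2% of all loci) and 11 in cold at 12 h (against 5.73%). One of those in cold at 3 h was level2_lnc-187, which also passed in drought at 3 h and salt at 12 h, as AT1G06002 did. In drought at 3 h, 4 of the 36 (11.1%, against 3.23% of all loci) passed the rule, AT1G06002 with AT1G05562, AT1G70185 and AT2G46192. In salt at 12 h, 3 did (8.33%, near the 7.64% of all loci), AT1G06002 with AT1G05562 and AT4G13495. AT1G05562 was also higher in salt at 3 h. Its levels correlated with those of AT1G06002 at r = 0.584, below the 0.959 of AT1G50659 but above the median of 0.17 over the 377 loci. For the class in cold at 3 h, the median log2(RPKM + 1) difference was 0.10 over the 17 read precursors and 0.12 over all 378 read loci. These medians were 0.34 and 0.13 in drought at 3 h, and 0.23 and 0.31 in salt at 12 h. The shares above compare lists of unlike read depth. At least 20 reads were found for 17 of the 36 precursors, against 378 of all 1362 loci. AT1G06002, the chosen locus, is itself 1 of the 4 in drought at 3 h and 1 of the 3 in salt at 12 h. Whether the class differs from other loci was not tested.

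Lying over an opposite start codon was common in the catalogue. Of the 384 annotated loci, 181 had at least 50% of their exon bases opposite a coding gene and 127 covered an opposite start codon, as did 12 and 9 of the 36 small RNA precursors. Of the 127, 4 (3.15%) were at least 2-fold higher in cold at 3 h, against 2.2% of all loci. In drought at 3 h 10 were (7.87%, against 3.23%) and in salt at 12 h 8 were (6.30%, against 7.64%). AT1G06002 and AT1G50659 were among each. Of the 127 loci, 68 had at least 20 reads, against 378 of all 1362 loci. The shares thus compare lists of unlike read depth, and an effect of lying over a start codon was not tested.

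The authors' table also gives conservation, histone mark and methylation values for each locus, none of which entered the choice of AT1G06002. These values were kept in their own rows: H3K9me2, a mark of silenced repeats, had a median of 5.30 in transposable element loci and 0 in the others when read so, and 0 in both when reordered like the RPKM. Histone values are the authors' scores and methylation values are theirs as well, with no replicate or depth. AT1G06002 scored 8.43 for H3K36me3, a mark of transcribed gene bodies, where the 384 annotated loci had a median of 2.65 and the 36 small RNA precursors 0.764. H3K4me3, a mark of active promoters, scored 11.1 against medians of 3.87 and 1.32, and H3K9Ac, a mark of open chromatin, 10.5 against 5.16 and 2.56. AT1G06002 ranked 2nd, 6th and 4th of the 36 precursors for these 3 marks.

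DNA methylation was low on AT1G06002, and H3K9me2 was 0. The median of H3K9me2 was also 0 over the annotated loci, of which 215 share that value, and 6.01 over the precursors. Methylation in the CpG context was 3.60, against medians of 12.4 over annotated loci and 56.4 over precursors, and ranked 32nd of the 36. CHG methylation was 3.13 against 4.24 and 14.9, and CHH methylation was 5.08 against 10.3 and 16.4. H3K27me3, a mark of Polycomb repression, was 1.62 against 1.71 and 1.85, and total H3 was 1.86 against 1.95 and 2.08, both near the medians. H3K18Ac, another mark of active chromatin, was 3.04 against 2.98 and 2.75, also near the middle. H3K4me2 was 6.74 against 3.57 and 2.20, and H3K36me2 was 4.03 against 3.01 and 2.21, both above the medians. H3K27me1 was 3.94 against 5.22 and 5.00, below them. The 3 marks first named, H3K4me2 and H3K36me2 were thus above, and H3K27me1, H3K9me2 and DNA methylation below, the median of the precursors. The authors list H3K18Ac, H3K36me3, H3K4me2, H3K4me3 and H3K9Ac as potential marks of the locus. The exon lies almost wholly opposite AT1G06000, and chromatin marks carry no strand, so which of the 2 genes they belong to cannot be told apart.

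**Figure D5:**
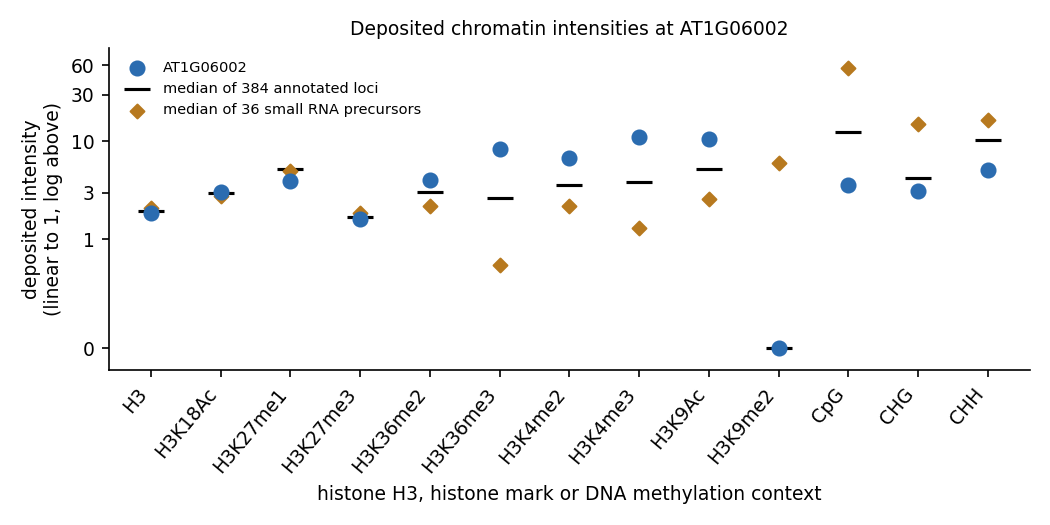
The authors' histone mark scores and DNA methylation values at AT1G06002, with the medians of the 384 annotated loci and of the 36 annotated small RNA precursors, on an axis that is linear up to 1 and logarithmic above. AT1G06002 lies above both medians for H3K36me3, H3K4me3, H3K9Ac, H3K4me2 and H3K36me2 and below both for H3K27me1 and for CpG, CHG and CHH methylation.

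The predicted RNA structure of AT1G06002 scored as conserved. The authors' structure conservation index was 0.93, ranked 18th of 384 loci and 2nd of the 36 precursors, both of which had a median of 0. They class its structure as conserved, as they do for 107 of the 384 loci, but not as one that matches known stress-related structures. The bit score of its DNA conservation was 176 against a median of 162, a score that 58 of the 384 loci had and that was their upper quartile. Its randfold p-value of 0.952, as deposited, was the median and also the highest value of the annotated loci, held by 244 of them. Such a p compares the fold with that of shuffled sequence. Read as an ordinary p, the value would mean that the fold did not score as more stable than that. Which way the deposited value runs was not checked, so no statement on stability is drawn from it. Most of the exon is opposite coding sequence, and the part of AT1G06000 in the conservation scores was not tested. The authors list no transcription factor binding for AT1G06002, and it is not among the 125 annotated transcripts of their deposited stress lists.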

How the data were processed

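Strand-specific libraries of poly(A)-minus, ribosomal RNA-depleted RNA were sequenced as 100-nt single reads, per the labels' protocols. The submitters' processing notes name Bowtie 0.12.9, TopHat2 2.0.8, Cufflinks and TAIR10, and no counting tool or strand setting. The deposited expression values are RPKM per locus, per the file headers. The histone, methylation and conservation columns are the authors' deposited scores, and the randfold p-values are the authors' own.

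Mapped reads and exon lengths turned RPKM into whole reads. The mapped reads of each library were not taken from a source but set to the depth that made most values of predicted loci whole. All 2790 of their 2790 non-zero values were then whole within 0.02 reads, so that count is no independent check. The values of annotated loci took no part in the fit. Of these, 1922 of 1922 were whole once each row's values were moved to the locus of the same rank by locus number. As deposited, 4.11% of the annotated values were whole. Deposited starts count from 0, and coordinates are printed from 1. They were read on TAIR10.1, in which all 384 annotated loci were found and 203 had both ends equal.

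Ratios carry exact Clopper-Pearson 95% intervals conditional on both read totals. Calls are at least 2-fold on log2(RPKM + 1), and no p-value is given, as each condition has 1 library. Named genes are AT1G06002, the 5 most like it, overlapping and neighbouring genes, precursors that passed the rule or lead by reads, and loci called in the same comparisons. Alternatives were pseudocounts of 0.1 and 0.5 RPKM, 2 scalings, values in their own row, a minimum of 10 reads and other likeness measures. The locus, lists and rules were chosen with earlier results of these data known. The remaining 24 per-sample columns were not used. Software was Python 3.11.15, numpy 2.4.6, pandas 2.3.3, scipy 1.17.1, matplotlib 3.10.9 and blastn 2.17.0.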

Additional observations from a re-analysis of the deposited data

Results flagged for a closer look

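The course of AT1G06002 from 3 h to 12 h differed in sign between stresses. On log2(RPKM + 1) it was -1.17 in cold and -0.74 in drought, but 0.85 in heat and 0.93 in salt, where rescaling left 0.44 and 0.33. With 1 library for each condition, the difference between stresses was not tested.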

How the results depend on the processing

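No paired analysis was possible because each condition has 1 library. Over the 2 other pseudocounts and the 2 rescalings, 47 of 48 log2 differences of AT1G06002 kept their sign, the exception being heat at 3 h at -0.02 once rescaled. With a pseudocount of 0.1 RPKM the cold value at 3 h was 2.55, and cold at 12 h, heat at 12 h, salt at 3 h and drought at 12 h also passed 2-fold (1.03, 1.39, 1.04 and 1.43). Scaled to the reads on the catalogue, salt at 12 h against 3 h was 0.33. Without re-matching, the values in its own row gave 0.012 in cold at 3 h, 0.042 in salt at 12 h, 0.125 in drought at 3 h and -0.023 in drought at 12 h. They gave 0.071 in cold, 0.083 in heat, 0.065 in salt and -0.15 in drought for 12 h against 3 h, so the course in cold was reversed.

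The number of loci at least 2-fold higher, in the order cold, heat, salt and drought with 3 h before 12 h, was 30, 78, 16, 67, 47, 104, 44 and 128. A pseudocount of 0.1 RPKM gave 237, 385, 176, 347, 282, 417, 273 and 474, and one of 0.5 RPKM gave 65, 143, 56, 138, 90, 184, 85 and 244. Rescaling by the median ratio gave 56 in salt at 12 h, 25 in drought at 3 h and 62 in drought at 12 h, and scaling to the reads on the catalogue 55, 26 and 52, with 46 in cold at 12 h. AT1G50659 was nearest under all 4 likeness alternatives, while Spearman's coefficient lowered level2_lnc-51 to 0.728. Of the 5 nearest loci, 1 to 4 stayed among the 5. Of 36 pairs of libraries, 24 differed beyond counting error after rescaling by the median and 26 on the other scale. The 19 control reads limit every ratio, and no value here shows the spread between seedlings.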

Other observations

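The authors' table leaves the polyadenylation of AT1G06002 unclassified, as for 190 of the 384 annotated loci, a class that the header ties to low expression. By its re-matched values, 94.5% of the annotated loci have a mean RPKM below that of AT1G06002 (2.62), and by the values in its own row (mean 0.0441) 39.6% do. Which values that class was made from is stated in none of the sources used here.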
